A study of Bos taurus with 24 samples.

Results

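In granulosa cells of 23 Holstein cows, 4 genes had a level in a single cow that was far above the level in every other cow. A gene was taken when its highest level reached 10 CPM (counts scaled to a common library size, with TMM factors between libraries) and was at least 10 times its second highest level. The genes were thus chosen by these CPM values in these same 23 libraries, so the sizes of the spikes are a description without a test. Of the 24615 genes listed for every library, 9587 reached 10 CPM in at least 1 cow, and 5 of these (0.0522%) met the ratio. One of the 5, ENSBTAG00000046531 with its highest level in cow 15, was left out, and the other 4 are described here. Cow 3 held 3 of them (ENSBTAG00000032259, ENSBTAG00000033030 and ENSBTAG00000048065), cow 24 held 1 (ENSBTAG00000047411), and the other 21 cows held none.

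Each library came from the granulosa cells of 1 slaughtered, multiparous cow in the luteal phase, with the antral follicles of its 2 ovaries pooled. Leukocytes had been depleted with beads against CD45 and erythrocytes by lysis, and the pools held mural and cumulus granulosa cells. The oocytes of 15 of the 23 cows were inseminated from bulls of high Nordic Total Merit (high-NTM, a breeding index), and 8 cows formed the low-NTM class. The granulosa cells were collected before insemination, so NTM class describes the semen used later and not a treatment of the cells. The in vitro production (IVP) scores of each cow are BL rate (the percentage of inseminated oocytes that became blastocysts), kinetic (mean developmental stage of its blastocysts) and morphology (mean quality of its blastocysts). Cows 1 and 15 gave no blastocysts, so their kinetic and morphology scores of 0 are not means over blastocysts. Cow 8 (low-NTM) was left out by the study as an outlier with few uniquely mapped read pairs. The rule did not use it either, so it served here as a library outside the choice of genes.

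Granulosa cells surround the oocyte, supply it with metabolites through gap junctions, answer to follicle-stimulating hormone and make oestradiol. A library of pooled follicles averages over follicles of several sizes and stages. In such bulk samples, fewer cells of a type and less RNA per cell cannot be told apart. With 1 library per cow, a feature of the cow and a feature of its library cannot be told apart either. None of the identifiers (0 of 24615) was paired with a symbol in the gene table used here, so the 4 genes are given by identifier, their functions and sequences are not given, and markers of granulosa or other cells were not analysed here.

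The 23 libraries held between 15525201 and 27074496 read pairs counted on genes. Cow 3 was in the middle of the group in depth (24496780 counts) and in genes with a count (16344, against a median of 16356). Its median Spearman correlation with the other libraries over 12868 expressed genes was 0.947, rank 19 of the 23 libraries from the highest. The 23 values ran from 0.901 to 0.969 with a median of 0.958, and cow 24 had 0.951 (rank 17). Cow 24 had the lowest total count and the most genes with a count, 21629. The second highest number was 17771 in cow 20, and the remaining 21 cows had between 15559 and 16714. CPM values are not corrected for gene length, so levels were compared between cows for the same gene and not between genes. A count of 0 in a library allows up to 3 counts, which is between 0.0898 and 0.206 CPM depending on the library.

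ENSBTAG00000032259 had 668 counts in cow 3, that is 30.6 CPM (95% exact Poisson interval 28.3 to 33.0, which covers counting error only). Its counts in the remaining 22 cows lay between 0 and 5 with a median of 1, and 5 of these cows had none. The second highest value was 0.191 CPM in cow 12, which is 160 times lower than the value of cow 3 (95% exact interval of the ratio 68.4 to 496, counting error only). Over the 22 other cows together the gene had 31 counts (0.0585 CPM), and the level of cow 3 was 524 times as high (95% exact interval 365 to 777, counting error only). Among the 22 cows without the spike, the counts varied about as much as counting error gives, with a variance of 1.18 times the Poisson value. Cow 3 was thus the only high library, and no value lay between 0.191 and 30.6 CPM.

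ENSBTAG00000033030 had 410 counts in cow 3, or 18.8 CPM (95% exact Poisson interval 17.0 to 20.7). It had 0 counts in 19 of the other 22 cows and a single count in each of cows 2, 6 and 12. The level of cow 3 was 3321 times that of the other 22 cows together, with an exact interval from 1129 to 16172 because only 3 counts stand on the other side. Against the second highest cow the ratio was 428 (exact interval 76.3 to 16937). In nearly every other cow the gene was thus at or under what this depth can show, and its true level there may be anywhere under that limit.

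ENSBTAG00000048065 was the gene nearest to both thresholds. It had 225 counts in cow 3, that is 10.3 CPM (95% exact Poisson interval 9.01 to 11.8), so counting error alone could put it below 10 CPM. The other 22 cows had between 0 and 19 counts with a median of 2, and only cow 9 had none. Cow 12 was again second, with 0.726 CPM, followed by cow 1 with 10 counts (0.444 CPM). The ratio to cow 12 was 14.2 (exact interval 8.89 to 24.1). The spread among the 22 cows was 4.36 times the Poisson value, so the counts differed between libraries beyond counting error also outside cow 3, and with 1 library per cow the spread between cows and that between libraries cannot be told apart.

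Together, the 3 genes took 1303 counts in cow 3, which is 0.00532% of its library (95% Wilson interval 0.00504 to 0.00562). In the other 22 cows their sum lay between 1 and 25 counts with a median of 3.5, and the highest sum was that of cow 12 (0.955 CPM, against 59.7 CPM in cow 3). Cow 24, which holds the other spike, had 1 count of ENSBTAG00000032259, 0 of ENSBTAG00000033030 and 1 of ENSBTAG00000048065.

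ENSBTAG00000047411 had 356 counts in cow 24, which is 24.5 CPM (95% exact Poisson interval 22.0 to 27.1). Unlike the genes of cow 3, it had a count in all 22 other cows, between 1 and 27 with a median of 5.5. The second highest value was 1.44 CPM in cow 20, a high-NTM cow, with a ratio of 17.0 (exact interval 11.5 to 26.2). The next values were 0.657 CPM in cow 14, 0.610 CPM in cow 9 and 0.582 CPM in cow 4, all low-NTM cows. The lowest values were 0.0444 CPM in cow 1 and 0.0427 CPM in cow 15, the 2 cows that gave no blastocysts, with 1 count each. Cows 12, 13 and 22 had 2 counts each (0.0764, 0.0818 and 0.0676 CPM), which counting error cannot separate from 1. Of these, cow 22 had a BL rate of 40% and a morphology score of 3.00, the highest given. The spread among the 22 cows was 6.60 times the Poisson value. Cows 24 and 20, the highest and second highest for this gene, were also the cows with the most genes detected, and the part of this in the spike was not tested.

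**Figure D1:**
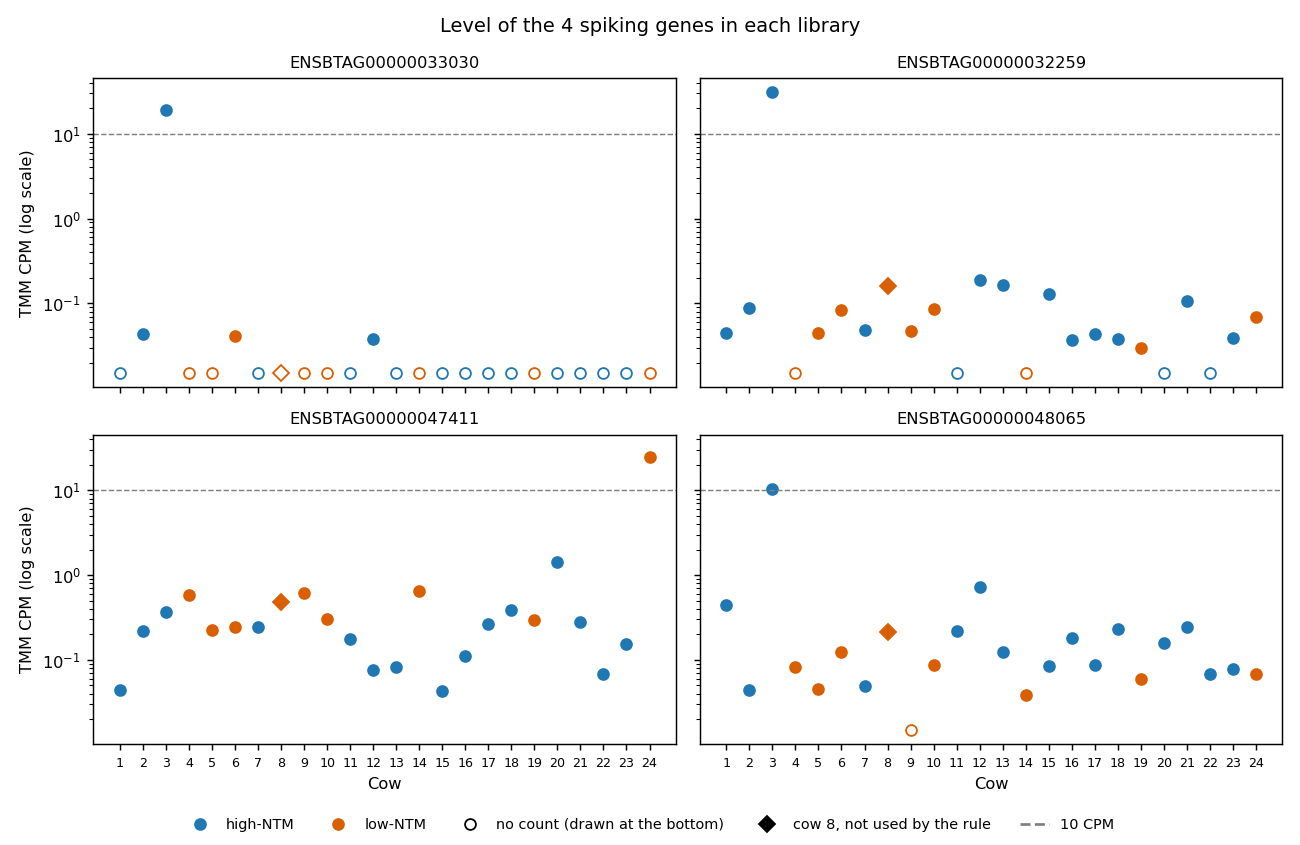
TMM-scaled CPM (log axis) of the 4 spiking genes in each cow, with 1 panel per gene, blue for high-NTM and orange for low-NTM cows, open symbols for libraries without a count and a diamond for cow 8, which the rule did not use. Cow 3 stands at 18.8, 30.6 and 10.3 CPM in its 3 panels and cow 24 at 24.5 CPM in the fourth, while no other library exceeds 1.44 CPM.

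Cow 8 gave values that the choice of genes had not used, and it had none of the spikes. Its counts were 3 for ENSBTAG00000032259 (0.161 CPM), 0 for ENSBTAG00000033030, 9 for ENSBTAG00000047411 (0.483 CPM) and 4 for ENSBTAG00000048065 (0.214 CPM). Each of these values lies within the range of the 22 cows without the spike. Cow 8 is itself the library that the study left out as an outlier. With it included in the rule, 14 genes met the rule, and 10 of them had their highest level in cow 8.

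Over the 9587 genes that reached 10 CPM, the median ratio of the highest to the second highest level was 1.10, and 143 genes reached a ratio of 2. Just inside the rule stood ENSBTAG00000048065 with a ratio of 14.2 and ENSBTAG00000047411 with 17.0. The 3 genes just outside it had ratios of 9.26, 8.66 and 8.06, with their highest levels in cow 14 for the first and second and in cow 15 for the third. Among genes with a sufficient ratio, the one nearest below 10 CPM had 7.97 CPM, in cow 24. The gap between ratios of 17.0 and 160 separated ENSBTAG00000032259 and ENSBTAG00000033030 from the other members.

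**Figure D2:**
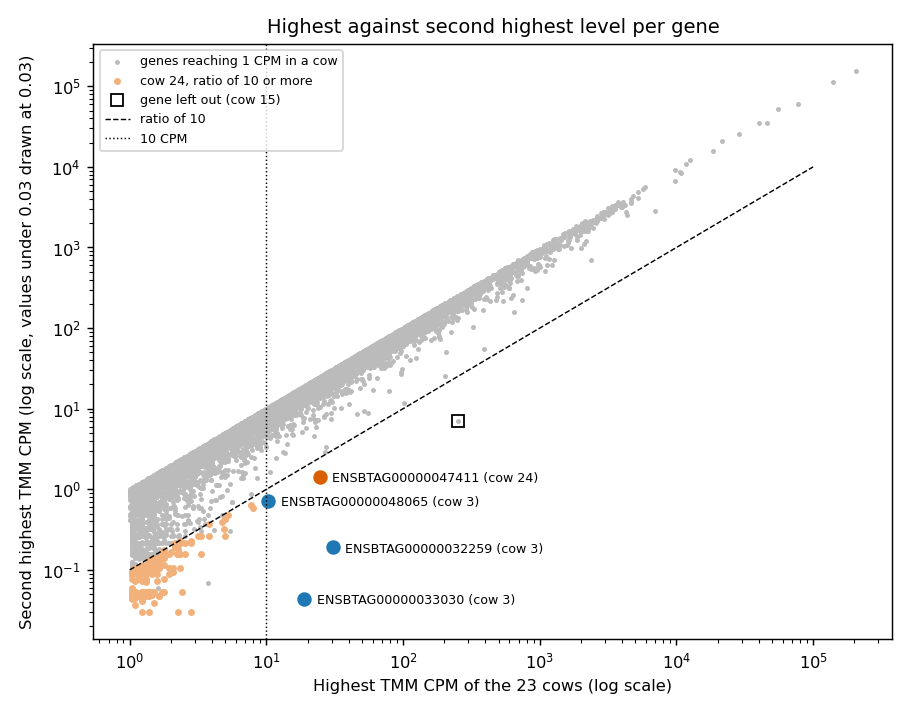
Highest against second highest TMM-scaled CPM of each gene among the 23 cows (both axes logarithmic), with grey points for genes that reached 1 CPM, light orange points for genes highest in cow 24 with a ratio of 10 or more, and large points for the 4 spiking genes. The members lie right of the 10 CPM line and below the line of a ratio of 10, and ENSBTAG00000033030 lies farthest below it, with 18.8 against 0.0439 CPM.

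The cows that held spikes changed with the thresholds. With a ratio of at least 5 in place of 10, the number of genes rose from 4 to 13 (with the gene left out added, 14 genes or 0.146% of 9587), of which cow 14 held 5, cows 3 and 15 held 3 each, and cows 10 and 24 held 1 each. With a minimum of 1 CPM and a ratio of 10, a setting chosen after the data were seen, there were 189 genes, of which cow 24 held 181 (95.8%). In cow 24, ENSBTAG00000047411 was thus accompanied by 180 genes of lower level, with 7.97 CPM at most and a median over the 181 of 1.37 CPM. In cow 3, by contrast, lowering the minimum to 1 CPM added no gene to the 3. The 2 cows with spikes therefore differed in this description, which rests on the values that chose the genes and has no test.

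**Figure D3:**
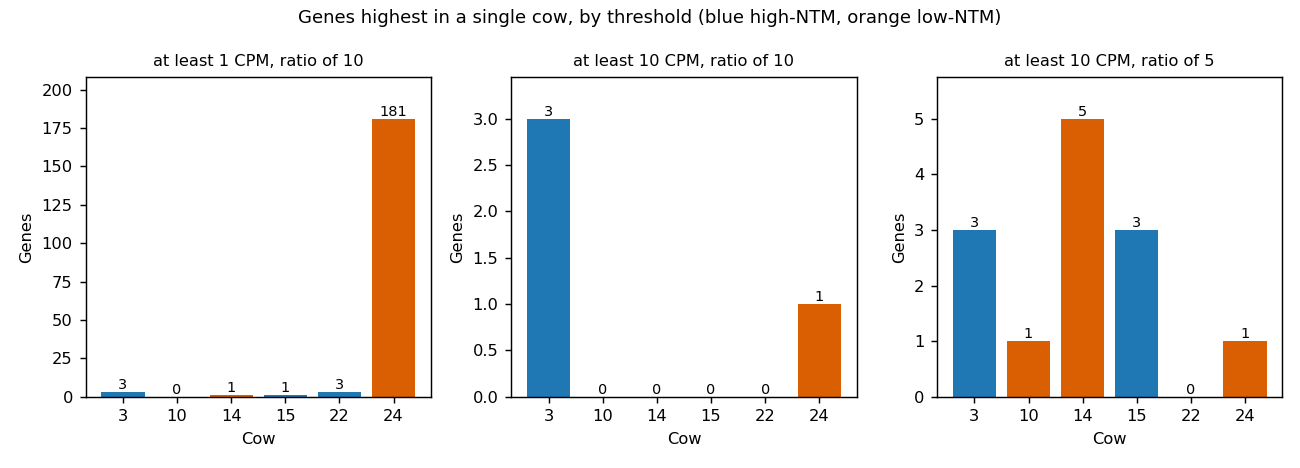
Number of genes with their highest level in 1 cow (bars from 0, blue for high-NTM and orange for low-NTM cows), for a minimum of 1 CPM with a ratio of 10, for 10 CPM with a ratio of 10, and for 10 CPM with a ratio of 5, without the gene left out. Cow 24 holds 181 genes in the first panel and 1 in the others, while cow 3 holds 3 genes in each panel.

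The 4 genes did not form runs of neighbouring identifiers. In the sorted list, the 2 nearest members, ENSBTAG00000032259 and ENSBTAG00000033030, were 202 places apart. No 2 neighbouring identifiers were found among the 13 genes of the looser ratio either, nor among the 189 genes of the lower minimum. Neighbouring identifiers are not always neighbours on a chromosome, and positions were not used here. Of the 10 identifiers around each gene of cow 3 (5 on each side), 7 or 8 had a count, and 0 had their highest level in cow 3, the cow that was highest for 2.21% of all genes with a count. Around ENSBTAG00000047411, 4 of 9 neighbours with a count were highest in cow 24, with 0.137 CPM at most, and cow 24 was highest for 35.7% of all genes with a count.

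The 2 cows with spikes had BL rates in the middle of the group, while cow 3 was among the highest in morphology and cow 24 in kinetic. Cow 3 (high-NTM) had 36% BL rate, with kinetic at 1.50 and morphology at 3.00. Its morphology score is the highest given, but cows 5, 21 and 22 shared it and had 1, 3 and 0 counts of ENSBTAG00000032259, no count of ENSBTAG00000033030, and 1, 7 and 2 counts of ENSBTAG00000048065. Cows 21 and 22 also shared its kinetic score, and cow 2 its BL rate. Cow 24 (low-NTM) had 33% BL rate and morphology at 2.29, while its kinetic of 1.83 was the second highest of the 23 cows. Cow 23, with the highest kinetic score of 1.88, had 4 counts of ENSBTAG00000047411 (0.155 CPM). Cows 14 and 21, with the same BL rate as cow 24, had 17 and 8 counts of this gene. That no other cow had the spike at the same score follows from the rule, so these values are a description only.

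**Figure D4:**
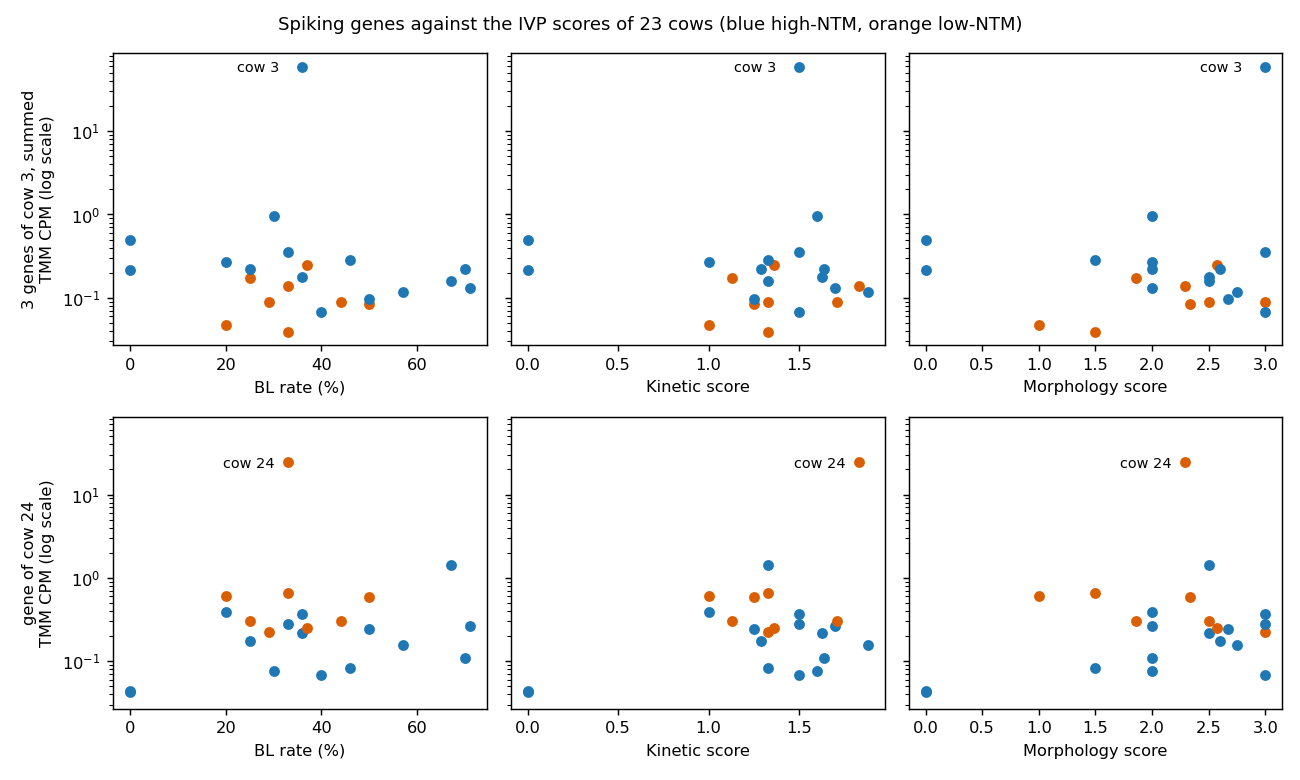
TMM-scaled CPM (log axis) against BL rate, kinetic and morphology in the 23 cows (blue high-NTM, orange low-NTM), with the sum of the 3 genes of cow 3 in the upper row and ENSBTAG00000047411 in the lower row. Cow 3 stands alone at 59.7 CPM beside cows of the same scores, and cow 24 at 24.5 CPM.

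No relation of the number of spiking genes per cow to the scores was detected over the 23 cows. Spearman's rho was -0.0324 for BL rate (two-sided permutation test, p = 0.889), 0.296 for kinetic (p = 0.183) and 0.209 for morphology (p = 0.376). Pearson's r was -0.0266 (permutation test, p = 0.901), 0.161 (p = 0.343) and 0.234 (p = 0.230) in the same order. The total count (rho = -0.172, permutation test, p = 0.459) and the number of genes with a count (rho = 0.220, p = 0.340) were tested with them, and over these 5 relations no Benjamini-Hochberg adjusted p of rho was below 0.574 (0.330 for r). Since 21 cows held no spiking gene, no correlation exists without the 2 cows farthest from the median, and any relation would rest on cows 3 and 24. The low-NTM cows held 0.125 ± 0.354 spiking genes per cow (SD, n = 8) and the high-NTM cows 0.2 ± 0.775 (SD, n = 15), a difference of -0.075 (p = 1.0 in a two-sided exact permutation test, 490314 splits of the cows). This difference too rests on cows 3 and 24 alone. The granulosa cells were taken before the semen was used, so this comparison was planned as a negative control. With all other cows at 0, the test cannot decide whether the NTM classes differ, and no conclusion is drawn from it.

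The regression of counts on each score, with NTM class as covariate, asks which genes follow the IVP outcome. Its low-count filter asks for 1 CPM or more in 3 or more cows. None of the 4 genes passed it (0 of 4), because ENSBTAG00000047411 reached 1 CPM in 2 cows and each of the others in 1. Among the 12868 genes tested, edgeR's quasi-likelihood test at a false discovery rate (FDR) of 0.05 called 0% on BL rate and 0.00777% on kinetic as well as on morphology, where 380, 511 and 1418 genes had an unadjusted p under 0.05. DESeq2's Wald test with the same filter called 0 genes on BL rate (489 with an unadjusted p under 0.05), 3 on kinetic and 73 on morphology. When all 22830 genes with a count were tested, none of the 4 genes was called for any score in edgeR's quasi-likelihood test. In edgeR's test 1 of them had an unadjusted p below 0.05 for kinetic, 3 for morphology and 0 for BL rate, where 3609, 1812 and 635 of the 22830 genes had one. DESeq2's Wald test on the same genes gave an adjusted p to all 4 genes for BL rate but to ENSBTAG00000047411 alone for kinetic and morphology, because the 3 genes of cow 3 got no p there. None of the genes with a p was called, and 2 of 4 had an unadjusted p below 0.05 for BL rate (571 genes in all), 1 of 1 for kinetic (899 genes in all) and 1 of 1 for morphology (2033 genes in all). DESeq2 gave an adjusted p to 22830, 22807 and 15274 genes in that order. The 3 genes with an unadjusted p below 0.05 for morphology in edgeR's test were the genes of cow 3. So were the 2 for BL rate in DESeq2's test. They rest on the same library and are not independent. The share of all genes called by edgeR in this fit was 0% on BL rate, 0.00438% on morphology and 0.815% on kinetic (0.793% higher and 0.0219% lower at a higher score). Without cow 3 the share on kinetic was 0.561% (0.548% higher and 0.0132% lower).

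In that fit, the genes of cow 3 were lowest in p for morphology. ENSBTAG00000033030 had p = 1.48e-05 and FDR = 0.113 in edgeR's test, ENSBTAG00000032259 had p = 0.003 and FDR = 0.426, and ENSBTAG00000048065 had p = 0.0214 and FDR = 0.583. Their slopes were 2.73 per unit of morphology for ENSBTAG00000032259 (standard error 0.830, log2 scale) and 1.12 for ENSBTAG00000048065 (standard error 0.454), and no slope is given for ENSBTAG00000033030, which had no count in 19 cows. Without cow 3, the slope of ENSBTAG00000032259 was -0.31 (standard error 0.398, FDR = 0.876 in edgeR's test) and that of ENSBTAG00000048065 was -0.20 (standard error 0.300, FDR = 0.902). ENSBTAG00000033030 had p = 0.545 and FDR = 0.912 in edgeR's test without cow 3. None of the 3 genes passed adjustment with or without cow 3, and since the rule took genes that were high in 1 cow, the loss of the slopes without that cow follows from the choice of genes. The p-values with cow 3 likewise rest on the counts that chose the genes, and so mainly on the score of that 1 cow. They are a description and give no evidence of a relation over the 23 cows.

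ENSBTAG00000047411 had its lowest p for kinetic, with a slope of 2.77 per unit on the log2 scale (standard error 1.04, p = 0.0135, FDR = 0.171 in edgeR's test). Without cow 24, the cow for which the gene was chosen, the slope was 0.58 (standard error 0.703, p = 0.419, FDR = 0.999 in edgeR's test). The p for kinetic with cow 24 likewise rests on the counts that chose the gene. For BL rate, the slope per 20% was 0.62 with cow 24 (standard error 0.475, FDR = 0.985) and 0.60 without it (standard error 0.248, p = 0.0247, FDR = 0.769 in edgeR's test), so neither passed adjustment. Of the 186 genes called for kinetic in this fit, 178 (95.7%) had their highest level in cow 24, against 35.7% of all genes with a count. Of the 186, 22 were among the 181 genes that were at least 10 times higher in cow 24 than in any other cow. These are 11.8% of the calls and 12.2% of the 181 genes, where 0.815% of all genes were called. The 181 genes were chosen by their level in cow 24, which had the second highest kinetic score, so these shares are a description only. Without cow 24, edgeR's test called 2 of 20857 genes for kinetic (0.00959%). Cows 1 and 15, with scores of 0 and the lowest levels of ENSBTAG00000047411, were kept in all these fits. The slopes of the spiking genes without these 2 cows were not computed.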

How the data were processed

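RNA of granulosa cells was sequenced by the authors as 1 stranded, ribosome-depleted library per cow. The authors deposited raw counts, the read pairs per Ensembl gene, made with STAR on UMD3.1 and HTSeq-count in its strand-specific mode, after adapter and quality trimming. The counts hold no correction for length or GC content. The 24615 genes listed for all 24 libraries were used, and the 4 spiking genes were found in the 23 cows without cow 8. TMM factors came from the 12868 genes that reached 1 CPM in 3 or more cows (edgeR 4.0.16, R 4.3.3) and were applied to all genes. CPM of cow 8 came from a scaling of all 24 libraries. The regressions used the quasi-likelihood test of edgeR, adjusted across all genes tested after Benjamini and Hochberg, and DESeq2 1.42.0 as alternative. Standard errors are the slope divided by the root of the F statistic. Correlations used 100000 permutations (Python 3.11.15, numpy 2.4.6, scipy 1.17.1). Each library is a separate cow, so tests measure the spread between cows. Intervals cover counting error only, since each cow gave 1 library. Reads carried no molecular identifiers, so copies of the same molecule may be counted as separate reads. The intervals may therefore be too narrow even for counting error. The spike rule and the regressions were run on simulated counts with planted effects. The planted spikes lay in genes with a higher level in the other cows than the 4 spiking genes had. This was a check of the code and gives no support to the 4 genes. The members, rules and lists were chosen with earlier results of these data known. The genes named are the 4 members, and further genes of the naming rule are given by their values only. Marker lists were not used, since 0 identifiers were matched to symbols. Bull, age, RIN and sampling date were not used here.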

Additional observations from a re-analysis of the deposited data

Results flagged for a closer look

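Among 10 measures examined in the 8 low-NTM cows, 5 had a cow that stood apart from the rest by Dixon's ratio of gap to range. About 1 in 20 groups of normally distributed values get this flag by chance. That rate does not hold for the number of spiking genes or for ENSBTAG00000033030, where all cows but 1 had 0 and the ratio is 1 by arithmetic. Of the 5, 4 concern cow 24, with 24.5 CPM of ENSBTAG00000047411, 1 spiking gene where the others held 0, the lowest total count (15525201) and the most genes with a count (21629). The first and second of these follow from the choice of the gene. The remaining one is cow 6 with 0.0413 CPM of ENSBTAG00000033030, which is 1 count where the other low-NTM cows had none.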

How the results depend on the processing

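The 4 spiking genes were also found with DESeq2 size factors and with TMM over all genes with a count, while plain CPM kept 3 of them and dropped ENSBTAG00000048065. The number was 13 with a ratio of at least 5, 2 with a ratio of at least 20, 9 with a minimum of 5 CPM, 2 with a minimum of 20 CPM and 189 with a minimum of 1 CPM (added after seeing the data). With cow 8 included it was 14, of which 10 had their highest level in cow 8. When each cow was left out in turn it lay between 1 (without cow 3) and 7 (without cow 23, with 3 further genes highest in cow 15).

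With a ratio of at least 5, rho of the number of genes per cow changed sign for kinetic (-0.110) and morphology (-0.253), and the low-NTM minus high-NTM difference became 0.475. That difference was 0.125 without cow 3. None of these had an unadjusted p below 0.05. Leaving out cows 3 and 24, the 2 farthest from the median, left no correlation to compute.

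The genes called for kinetic numbered 1 in the edgeR test, 186 without the low-count filter (128 without cow 3 as well, 2 without cow 24 as well), 3 with DESeq2 (2 without the filter) and 0 without cows 1 and 15. For morphology they numbered 1, 73 with DESeq2 (53 without the filter), 0 without cows 1 and 15, and 2 without the filter and cow 24. When each cow was left out in turn, the calls ranged from 0 to 1 for BL rate (1 without cow 1), from 0 to 3 for kinetic (0 without cow 15, 3 without cow 23) and from 0 to 6 for morphology (0 without cow 15, 2 without cows 16 and 18 each, 3 without cow 23, 4 without cow 12, 6 without cow 21). Without the filter, the slopes of ENSBTAG00000032259 and ENSBTAG00000048065 changed sign without cow 3, to -0.15 and -0.25 for kinetic and to -0.31 and -0.20 for morphology. DESeq2 without the filter gave no p to 3 of the 4 genes for kinetic and for morphology. The causes were not tested. No paired analysis was possible because replicate numbers follow accession order and each cow gave 1 library.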
